A study of Mus musculus with 24 samples.

Results

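The 46 genes described here encode the secreted and membrane-bound metalloproteases of the extracellular matrix and their inhibitors in the mouse. They comprise 23 matrix metalloproteases (MMPs), 19 ADAMTS enzymes and the 4 tissue inhibitors of metalloproteases (TIMPs). They were taken by symbol, as every gene of these 3 families whose identifier maps to a protein-coding mouse gene, from the 36528 gene models counted in each library. All 46 were found in the files. Their expression was compared between 2 stromal cell types sorted from Peyer's patches, the lymphoid follicles of the small intestine, in unperturbed mice and in mice given PEG.

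Fibroblastic reticular cells (FRCs) are the fibroblasts that build the fibre network of lymphoid tissue. High endothelial venules (HEVs) are the blood vessels through which lymphocytes enter it, and their endothelial cells were sorted here. PEG (polyethylene glycol) is an osmotic agent that holds water in the gut, and the study used it to lower fluid flow. It was taken freely in the drinking water at 10% (w/v) for 3 days, and 1000 cells per mouse were sorted. The groups are 7 FRC control, 7 FRC PEG, 4 HEV control and 6 HEV PEG libraries. Strain, age and sex, and whether an FRC and an HEV library came from the same mouse, are not given in the sources used here. Each library carries a number from 1 to 24, by which single libraries are named below.

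MMPs and ADAMTS enzymes are zinc proteases made as inactive precursors. MMPs cut collagens, gelatin and many cell-surface proteins, and several of them activate one another. ADAMTS enzymes carry thrombospondin repeats that help hold them in the matrix, where they trim procollagens, proteoglycans such as versican, or von Willebrand factor. TIMPs bind the active site of these enzymes, and TIMP3 is known for blocking ADAMTS enzymes as well as MMPs. The families are best known from the turnover of connective tissue by fibroblasts and of the basement membrane around vessels.

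A run of 10 MMP genes lies on mouse chromosome 9, in the order Mmp13, Mmp12, Mmp1b, Mmp3, Mmp1a, Mmp10, Mmp8, Mmp27, Mmp20 and Mmp7. Mmp3 and Mmp10 of that cluster are among the most abundant members in FRCs, while several of their neighbours had almost no reads, so their promoters are shown. The sequences are those of RefSeq for GRCm38.p6 and hold the 250 bases before the annotated start, 5′ to 3′ on the gene's strand. Capitals mark TGANTCA, the motif bound by AP-1 factors such as Fos and Jun.
Mmp3 at chr9:7445572-7445821, + strand: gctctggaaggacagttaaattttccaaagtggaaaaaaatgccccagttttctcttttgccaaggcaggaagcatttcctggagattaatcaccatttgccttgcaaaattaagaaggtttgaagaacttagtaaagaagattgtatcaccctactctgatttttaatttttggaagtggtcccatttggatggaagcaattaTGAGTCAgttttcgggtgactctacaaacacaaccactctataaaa
Mmp10 at chr9:7502092-7502341, + strand: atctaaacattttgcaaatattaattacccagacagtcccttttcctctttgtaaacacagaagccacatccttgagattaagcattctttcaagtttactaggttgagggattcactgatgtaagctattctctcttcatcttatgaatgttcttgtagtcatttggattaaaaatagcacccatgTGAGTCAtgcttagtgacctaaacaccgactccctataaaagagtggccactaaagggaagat
The other 6 genes of the cluster that hold the motif are shown with 10 bases on either side of it.
Mmp13: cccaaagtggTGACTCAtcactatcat
Mmp12: acatcaacagTGAGTCAgatagaggat
Mmp1b: ttacaaagccTGAGTCAtatagcctct
Mmp1a: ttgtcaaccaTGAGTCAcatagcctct
Mmp20: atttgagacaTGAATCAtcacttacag
Mmp7: agtgtgcaaaTGAGTCAcctatttcca

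Searched on both strands in the 250 bases before each start, TGANTCA was found in 6.75% of 32851 promoters. Promoters were available for 32 of the 46 genes, and 8 of these held the motif, all within the cluster. It lay 35 bases before the start in Mmp13, 46 in Mmp3, 63 in Mmp10 and 95 in Mmp20. Mmp8 and Mmp27 held none. The letters TATAAA, found in TATA boxes, stood in 12.4% of all promoters, in 9 of the 35 promoters of members and in 7 of the 12 of the cluster. Genes of very different levels carried TGANTCA. Mmp1a, Mmp1b, Mmp12 and Mmp20 carried it and had 14, 2, 8 and 10 reads over all 24 libraries, against 191263 reads of Mmp10 and 77146 of Mmp3.

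By sums over marker lists, the sorted cells carried the markers of their labels. Levels are given as CPM, counts per 1000000 after scaling for library composition. Summed over 10 fibroblast genes, FRC libraries held 22386 to 39043 CPM and HEV libraries 7.45 to 508. Thy1 of this list was near 0 in FRCs too, with means of 0.233 CPM in controls and 0.826 under PEG. In HEVs its means were 0.911 and 0.282. Summed over 12 endothelial genes, HEV libraries held 16756 to 25159 CPM and FRC libraries 114 to 461. A list of 8 smooth muscle and pericyte genes gave 3489 to 5490.0 CPM in FRCs and 15.6 to 506 in HEVs. The part of smooth muscle or pericyte RNA in the FRC levels below was not tested. Library totals ran from 12416032 to 21710946 counted reads, apart from HEV PEG 16 with 3115003. Genes of the intestinal epithelium were present in every group at uneven levels, between 17.2 and 5580.3 CPM summed over 14 genes. In bulk libraries fewer expressing cells and less RNA per cell cannot be told apart, which holds for every level below.

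**Figure D1:**
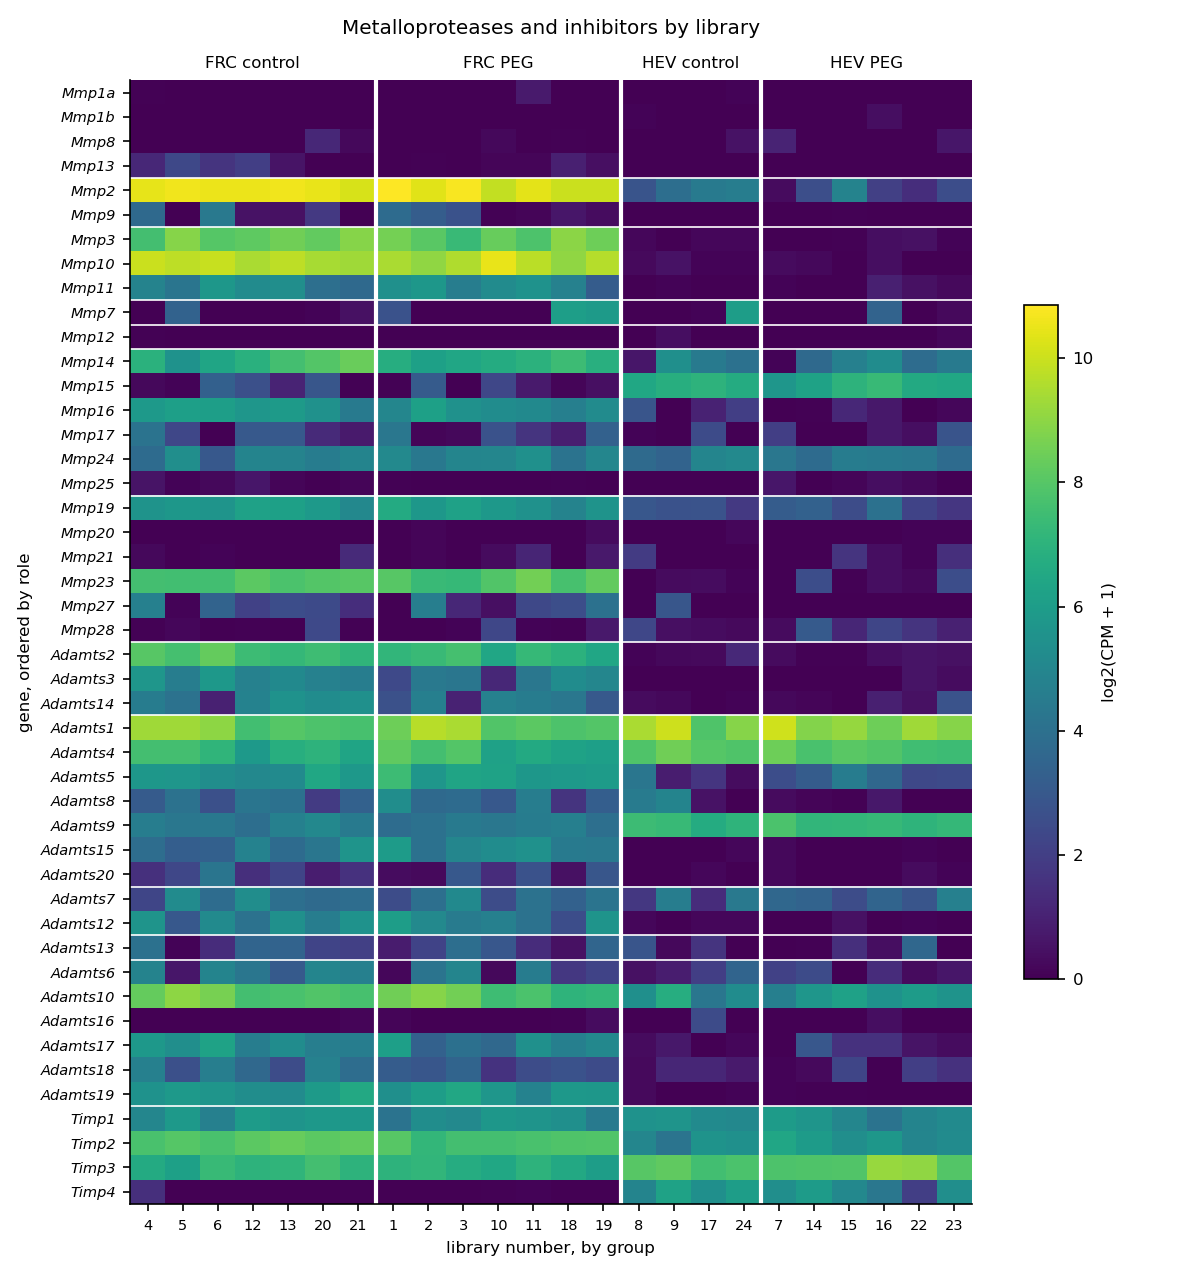
Level of the 46 members in each of the 24 libraries, as log2(CPM + 1) by colour, with genes in rows ordered by role and libraries in columns by group. Mmp2, Mmp3, Mmp10 and Mmp23 are high in all 14 FRC libraries and low in the 10 HEV libraries, while Mmp15, Adamts9 and Timp4 show the opposite order.

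Levels of different genes were compared on the deposited per-length value, an RPKM adjusted by a size factor of the library. The gene length this RPKM implies was set against the exon length in GENCODE models, as a ratio relative to that of the median gene. It lay within 25% of the median for 27 of 41 members checked. It was 0.50 for Mmp14, 0.60 for Adamts10, 0.67 for Timp3, 0.66 for Adamts9 and 0.28 for Timp4, so with exon lengths these 5 genes would stand lower among the members than given here. In FRC controls Mmp10, a stromelysin, stood at 375 ± 60.5 (SD, n = 7) and Mmp2, a gelatinase that degrades basement-membrane collagen, at 353 ± 33.6. The difference between them was smaller than their spread. Mmp3, the other classic stromelysin, followed at 145 ± 46.4 and Mmp23 at 66.1 ± 12.2. Then came 4 genes within each other's spread, with Adamts1 at 59.6 ± 31.1, Timp2 at 57.3 ± 9.89, Adamts10 at 53.4 ± 21.1 and Mmp14 at 49.3 ± 30.7. The first 5 places were held by the same genes in the same order in FRC PEG libraries, where Mmp10 stood at 363 ± 140.4 (SD, n = 7) and Mmp2 at 317 ± 84.8.

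HEV controls had another order on the per-length scale. Adamts1, a versican-cleaving protease, led at 93.4 ± 52.4 (SD, n = 4), followed by Adamts4 at 54.8 ± 12.3, Timp3 at 38.4 ± 7.41, Timp1 at 33.9 ± 6.70 and Timp4 at 27.1 ± 10.5. Each of these lay within the spread of its neighbour except for Adamts4 and Timp3. The highest MMP was the membrane-type enzyme Mmp15 at 18.6 ± 2.91. Mmp7 followed at 13.8 ± 27.5, a mean that rests on 1 library described at the end. HEV PEG libraries were led by Adamts1 at 91.5 ± 39.2 (SD, n = 6), Timp3 at 55.8 ± 29.1 and Adamts4 at 48.8 ± 13.2.

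On the per-length scale, the summed MMPs differed between the cell types far more than the summed ADAMTS enzymes or TIMPs. MMPs summed to 1032 ± 52.5 (SD, n = 7) in FRC controls, 976 ± 117 (n = 7) in FRC PEG, 48.6 ± 28.4 (n = 4) in HEV controls and 33.3 ± 16.1 (n = 6) in HEV PEG libraries. Mmp10, Mmp2 and Mmp3 held 36.4%, 34.2% and 14.0% of the MMP sum in FRC controls. Mmp15 held 46.6% in HEV controls, and Mmp7 held 61.5% in HEV control 24. By gene, in the test below, 8 of 13 MMPs were lower in HEV controls and 1 higher. Of 18 ADAMTS enzymes 11 were lower and 3 higher, beside 14.2% and 10.4% of all genes. ADAMTS enzymes summed to 196 ± 60.7, 191 ± 83.3, 175 ± 73.8 and 166 ± 49.6 in the same order of groups. TIMPs summed to 121 ± 22.8, 94.1 ± 10.1, 106 ± 15.8 and 115 ± 18.5. On the implied lengths the ADAMTS and TIMP sums of the control groups thus differed by less than their spread, but were made of other genes. Adamts1, Adamts10 and Adamts4 held 28.8%, 27.0% and 13.7% of the ADAMTS sum in FRC controls, whereas Adamts1, Adamts4 and Adamts9 held 50.6%, 34.3% and 7.55% in HEV controls. Timp2 held 47.7% and Timp1 33.7% of the TIMP sum in FRC controls, and Timp3 36.0%, Timp1 31.9% and Timp4 25.2% in HEV controls. The HEV order, the ADAMTS and TIMP shares and the closeness of the TIMP sums depend on the length used. So do the FRC places of Adamts10 and Mmp14. Among ADAMTS enzymes the implied length is short for Adamts10 (0.60) and Adamts9 (0.66), and not for Adamts1 (1.07). The implied lengths of Timp3 and Timp4 are short and that of Timp1 is not (1.16). With exon lengths the TIMP sum of HEV controls, where Timp3 and Timp4 hold more, would fall relative to that of FRC controls.

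Spread between libraries of a group differed widely among the members. Among the 32 members at a mean of at least 5 CPM in FRC controls, the coefficient of variation of the CPM was lowest for Mmp2 at 9.97% and Timp2 at 15.9%, with a median of 43.3%. It was highest for Mmp9 at 156% and Mmp27 at 121%. Several genes were present in most FRC libraries and nearly missing in others. Adamts6 had 0.569 CPM in FRC control 5 against 7.49 to 29.2 in the other 6 controls, and 0.143 and 0.174 CPM in FRC PEG 1 and 10 against 2.43 to 29.4 in the other FRC PEG libraries. Adamts14, a procollagen N-proteinase, had 0.975 CPM in FRC control 6 and 16.1 to 45.7 in the other controls.

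The first comparison asked which members distinguish the cell types. Among controls, 35 members had enough reads for a test, and 26 differed between HEVs and FRCs at a Benjamini-Hochberg adjusted p under 0.05 (edgeR quasi-likelihood test over 15743 genes, with the block of library numbers as covariate). Lower in HEVs were 20 members, against 14.2% of all genes tested, and 6 were higher, against 10.4%. In either direction 24.6% of all genes passed. The median log2 fold change of the tested members was -3.93, against -0.16 over all genes. Members high in FRCs and missing from HEVs entered the test through their FRC level, so the count of lower members is a description. The 6 that were higher in HEVs were Mmp15, Adamts1, Adamts4, Adamts9, Timp3 and Timp4.

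**Figure D2:**
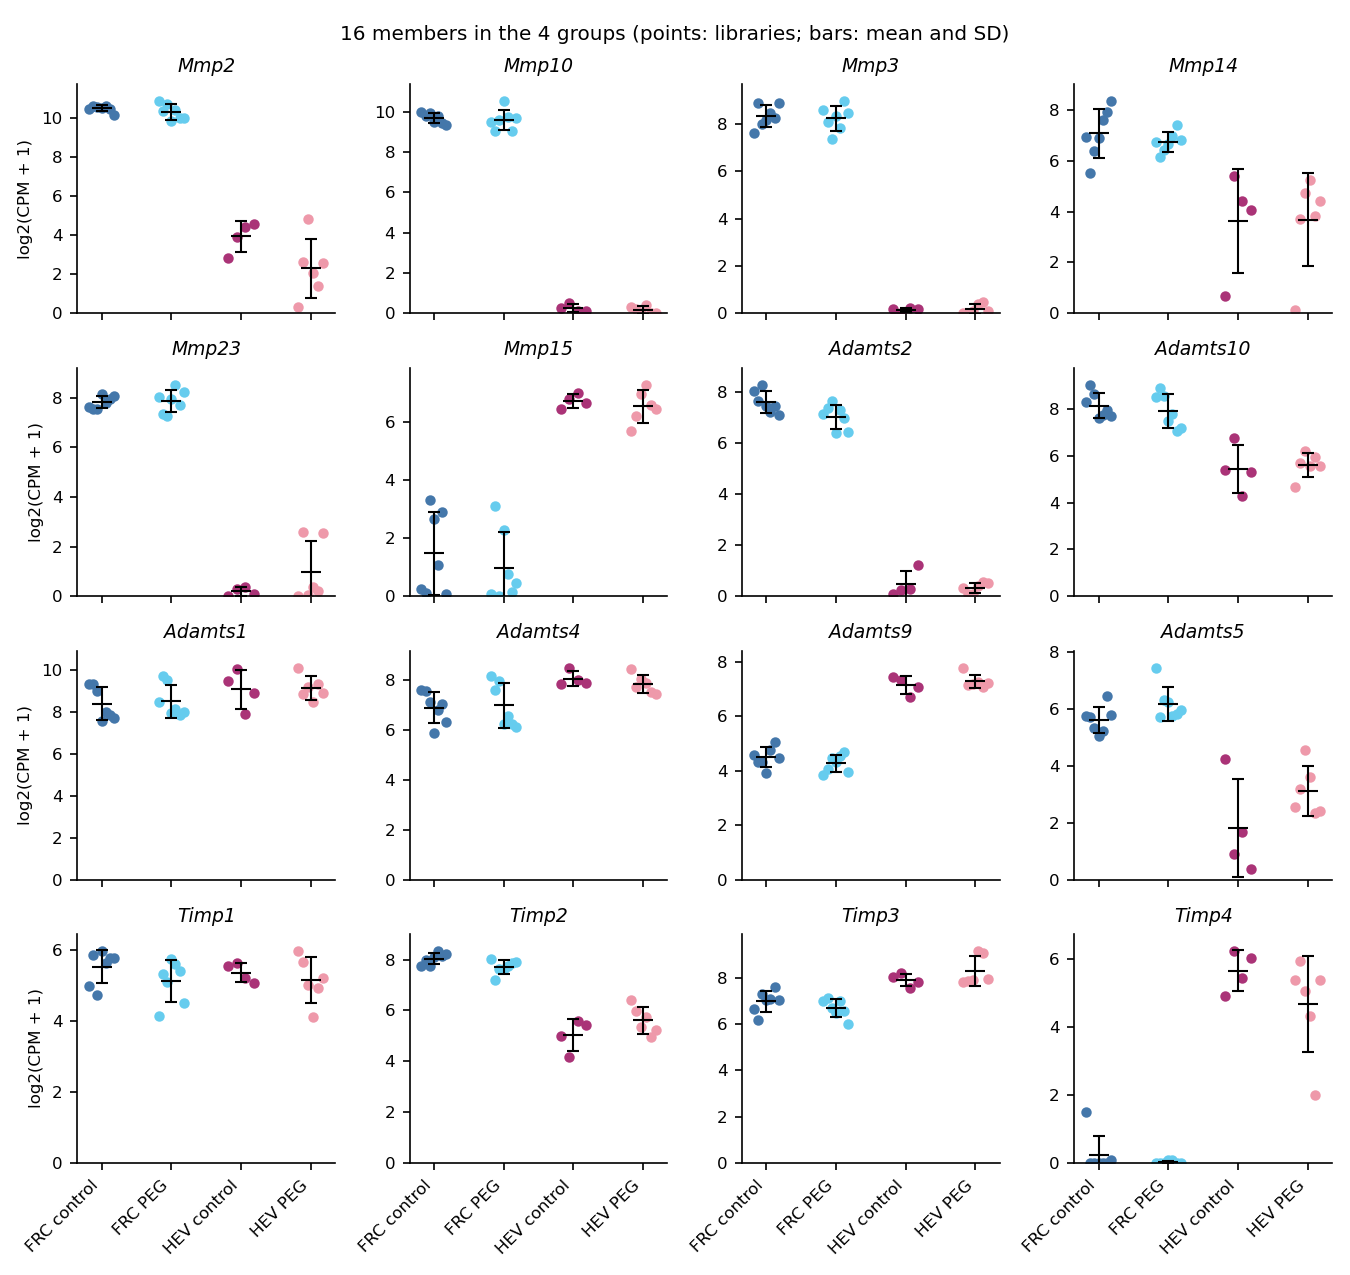
Levels of 16 members by group, as log2(CPM + 1), with each point a library and bars the mean and SD of these log values. Adamts1, Adamts4, Timp1 and Timp3 overlap between FRC and HEV libraries and the other genes shown do not. This describes the genes shown, and the share of all genes without overlap is not given here. Timp1 overlaps across all 4 groups.

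Among the gelatinases, Mmp2 was the most evenly expressed member in FRC controls. Its lowest, median and highest levels there were 1158, 1483 and 1587 CPM, while HEV controls 8, 9, 17 and 24 had 6.03, 14.0, 20.6 and 23.1 CPM. The groups were far apart, with a log2 fold change of -6.75 ± 0.37 (SE; edgeR adjusted p = 1.52e-07). The summed fibroblast markers were 508 CPM in HEV control 9 and 20.5 to 46.5 CPM in the other 3 HEV controls, of which numbers 17 and 24 had more Mmp2 than number 9. The part of FRC RNA in the Mmp2 reads of HEV libraries was not tested.

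Mmp9, the second gelatinase, was present in some FRC libraries only. FRC PEG 1, 2 and 3 had 12.7, 8.07 and 5.59 CPM, FRC controls 4, 6 and 20 had 11.9, 19.8 and 2.44 CPM, and the other 8 FRC libraries had at most 0.580 CPM. Reads numbered 498 in FRC controls and 0 in HEV controls. By a floor of 3 counts over the HEV group, the FRC level of Mmp9 was at least 86.5-fold higher. It had too few reads for the test across genes, and passed with no filter on low counts (adjusted p = 0.00280). Macrophages and neutrophils are known sources of Mmp9. Summed markers of 8 macrophage genes were 161 to 233 CPM in FRC PEG 1, 2 and 3 and 168 and 158 CPM in FRC controls 4 and 6. They were higher, at 259 and 294 CPM, in FRC control 5 and FRC PEG 18, where Mmp9 stood at 0 and 0.580 CPM. Summed neutrophil markers were 43.5 CPM in FRC PEG 1 and at most 7.71 in every other library. Their part in the Mmp9 level was not tested.

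All 3 stromelysins, which activate other MMPs and degrade matrix proteins, were lower in HEVs, beside 14.2% of all genes. They entered the test through their FRC level, so this count is a description. Mmp10 had 635, 876 and 1013 CPM as its lowest, median and highest levels in FRC controls, and 0.197, 0.424, 0.0737 and 0.0719 CPM in HEV controls 8, 9, 17 and 24. Every FRC control thus exceeded every HEV control by over 1000-fold. The log2 fold change was -11.96 ± 0.42 (SE; edgeR adjusted p = 8.90e-09), and -12.63 without HEV control 9. Mmp3 ran from 195 to 471 CPM in FRC controls and from 0 to 0.147 in HEV controls, with a log2 fold change of -11.71 ± 0.59. Mmp11 (stromelysin 3) had 3255 reads in FRC controls and 1 in HEV controls, a ratio of 1696 (95% counting interval 304 to 67015).

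Membrane-type MMPs, which act at the cell surface and include the activator of pro-MMP2, split between the cell types. Mmp14, that activator, was lower in HEVs with a log2 fold change of -3.87 ± 0.72 (SE; edgeR adjusted p = 0.00199). It was -3.13 without HEV control 8 and -4.98 without HEV control 9. Its lowest, median and highest levels were 45.1, 122 and 326 CPM in FRC controls, and HEV controls 8, 9, 17 and 24 had 0.590, 41.7, 20.4 and 15.7 CPM. The HEV level was uneven, with 0.0846 CPM in HEV PEG 7 against 12.1 to 37.3 in the other HEV PEG libraries. HEV control 8 and HEV PEG 7, the lowest of their groups, are the only HEV libraries among numbers 1 to 8. Mmp16 was lower in HEVs too, with a log2 fold change of -4.45 ± 0.97, and -5.34 without HEV control 8 and -3.73 without HEV control 9.

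Mmp15 showed the opposite order. HEV controls 8, 9, 17 and 24 had 86.3, 112, 129 and 102 CPM, while FRC controls had 0.0591, 1.09 and 8.93 CPM as lowest, median and highest. No FRC library came near an HEV library. The log2 fold change was 4.98 ± 1.17 (SE; edgeR adjusted p = 0.00916), and 6.15 without FRC control 6 and 5.96 without FRC control 20. Mmp24 did not pass, with a log2 fold change of -0.52 (95% interval -1.79 to 0.75), nor did Mmp17 with -3.06 (interval -11.15 to 5.03). Without HEV control 17, which held most of the HEV reads of Mmp17, the Mmp17 value was -7.46 and passed (adjusted p = 0.0430).

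Mmp23, an MMP of unusual domain structure, was the most abundant of the other MMPs. FRC controls held 186 to 279 CPM and HEV controls at most 0.295, with a log2 fold change of -10.67 ± 0.53 (SE; edgeR adjusted p = 7.51e-08). Mmp19 was lower in HEVs by a smaller amount, at 32.8 to 73.2 CPM in FRC controls and 2.52 to 6.69 in HEV controls, with a log2 fold change of -3.36 ± 0.41. Mmp27 had 0.0712 to 25.2 CPM in FRC controls and reads in 1 HEV control, number 9, at 6.54 CPM. It did not pass (adjusted p = 0.233), and passed without that library at -9.49 (adjusted p = 0.0291).

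The collagenases had few reads. Mmp13 had 171 reads in FRC controls and 0 in HEV controls. By the same floor its FRC level was at least 29.7-fold higher, and its adjusted p lay just above 0.05. Mmp1a, Mmp1b and Mmp8 had 14, 2 and 55 reads over all 24 libraries.

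Procollagen N-proteinases, which remove the amino-terminal propeptide of fibrillar collagens, were lower in HEVs in 3 of 3 cases, beside 14.2% of all genes. These enzymes too entered the test through their FRC level, so this count is a description. Adamts2 had 137, 175 and 309.9 CPM as lowest, median and highest in FRC controls and 0.0656, 0.182, 0.221 and 1.37 CPM in HEV controls 8, 9, 17 and 24. That gave a log2 fold change of -8.94 ± 0.76 (SE; edgeR adjusted p = 5.55e-06), and -8.25 without HEV control 8 and -10.18 without HEV control 24. Adamts3 had 3810 reads in FRC controls and 0 in HEV controls, so that by the floor its FRC level was at least 662-fold higher. Adamts14 was lower in HEVs with a log2 fold change of -7.56 ± 1.25, and -8.69 without HEV control 8.

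Proteoglycan-cleaving ADAMTS enzymes were divided, with 3 higher and 3 lower in HEVs of 7 tested, beside 10.4% and 14.2% of all genes. Adamts9, which cleaves versican, had 171, 159.8, 103 and 133 CPM in HEV controls 8, 9, 17 and 24, and 14.2 to 32.5 CPM in FRC controls. The groups did not overlap, and the log2 fold change was 2.63 ± 0.29 (SE; edgeR adjusted p = 4.17e-05). Adamts4, an aggrecanase, had 231, 361, 255 and 235 CPM in these HEV controls and 57.6 to 193 CPM in FRC controls, with a log2 fold change of 1.21 ± 0.29 (SE; edgeR adjusted p = 0.0100). Without HEV control 9 it was 0.85 and did not pass (adjusted p = 0.0722).

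Adamts1 overlapped between the groups, with 705, 1035, 231 and 474 CPM in HEV controls 8, 9, 17 and 24 and 187, 251 and 628 CPM as lowest, median and highest in FRC controls. Its log2 fold change was 1.00 ± 0.31 (SE; edgeR adjusted p = 0.0338). The call was lost under 10 of 23 alternative settings. Without HEV control 9 the value was 0.49 (adjusted p = 0.211). It was 1.02, 0.81, 0.92, 1.05 and 0.92 without FRC control 6, 12, 13 or 21 or HEV control 24, also past the threshold in none of these.

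Adamts5, the other major aggrecanase, went the opposite way to Adamts4. It had 32.4 to 87.3 CPM in FRC controls and 18.0, 0.848, 2.21 and 0.287 CPM in HEV controls 8, 9, 17 and 24, with a log2 fold change of -3.93 ± 0.95 (SE; edgeR adjusted p = 0.0101). It was -5.65 without HEV control 8 and -3.32 without HEV control 24. Adamts15 had 2326 reads in FRC controls and 2 in HEV controls, a ratio of 606 (95% counting interval 168 to 5007). Adamts20 had 455 and 2 reads, a ratio of 119 (95% counting interval 32.6 to 982). It lost its call without HEV control 8, 9 or 24 (adjusted p = 0.0834, 0.0844 and 0.0650). Adamts8 did not pass among controls and returns below.

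Of the remaining ADAMTS genes, Adamts10, which acts on fibrillin microfibrils, was the most abundant. It had 192, 242 and 519 CPM as lowest, median and highest in FRC controls and 40.8, 106, 18.3 and 37.9 CPM in HEV controls 8, 9, 17 and 24. The log2 fold change was -2.49 ± 0.42, and -3.17 without HEV control 9. Adamts12, Adamts17, Adamts18 and Adamts19 were lower in HEVs too, with log2 fold changes of -8.32, -7.15, -4.29 and -9.60. Adamts17 was at -7.97 without HEV control 9, Adamts18 at -3.66 without HEV control 8 and -5.13 without HEV control 9, and Adamts19 at -11.04 without HEV control 8. Adamts7 and Adamts13, the von Willebrand factor protease, did not pass at -0.91 ± 0.91 and -1.53 ± 1.59. Adamts6 stood at -3.48 ± 1.18 with an adjusted p just above 0.05, and passed without FRC control 5 or HEV control 24 (adjusted p = 0.0186 and 0.0373).

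The inhibitors did not move as a family. Timp4 had 28.9, 74.2, 42.0 and 64.5 CPM in HEV controls 8, 9, 17 and 24, and 31 reads over all 7 FRC controls, 30 of them in FRC control 4. Its log2 fold change was 9.61 ± 1.64 (SE; edgeR adjusted p = 0.00113), and 11.43 without FRC control 4, 11.38 without HEV control 8 and 8.27 without HEV control 9. Timp2, the TIMP that takes part in the activation of pro-MMP2 by MMP14, was lower in HEVs. It had 30.8, 16.8, 46.5 and 42.4 CPM in HEV controls 8, 9, 17 and 24 against 211 to 322 in FRC controls, with a log2 fold change of -3.16 ± 0.28.

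Timp3, the matrix-bound TIMP, had 264, 290.4, 188 and 221 CPM in HEV controls 8, 9, 17 and 24 and 70.8 to 196 CPM in FRC controls. Its log2 fold change of 0.82 ± 0.26 (SE; edgeR adjusted p = 0.0421) did not pass under 12 of 23 alternative settings. Among these were fits without FRC control 4, 12, 13 or 21, at 0.79, 0.78, 0.81 and 0.81, and without HEV control 8, 9 or 24, at 0.63, 0.73 and 0.90. Timp1, an inhibitor of most MMPs, had 32.2 to 48.4 CPM in HEV controls and 25.4 to 61.2 in FRC controls. Its log2 fold change was -0.26 with a 95% interval of -0.97 to 0.45, which lies within 2-fold either way.

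Timp1, Timp4 and Timp3 lie in introns of the synapsin genes Syn1, Syn2 and Syn3, and counting by strand is not stated, so reads of a TIMP and its host cannot be fully told apart. Mean levels of Syn1 were at most 1.67 CPM in any group, and those of Syn3 at most 1.22. Syn2 had 8.32 ± 1.40 CPM (SD, n = 4) in HEV controls and 3.00 ± 6.69 (n = 7) in FRC controls.

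Under PEG the comparison of cell types used libraries not shared with the control comparison. Of 33 members tested, 6 were higher in HEVs, against 12.5% of all genes, and 19 lower, against 14.4% (26.8% in either direction, 14991 genes). Both comparisons called 24 members, all with the same sign in both. These are 92.3% of the control calls and 96.0% of the PEG calls, where over all genes 69.5% and 66.9% were shared. The shares over all genes count calls of either sign and are not matched for the size of the difference. Members missing from HEVs entered both comparisons through their FRC level, so the shared part is a description. The 6 higher members were the same. Adamts8 was called under PEG and not among controls, and the test of that difference is given below. Adamts18 was called among controls, and under PEG by limma-voom (adjusted p = 0.0409) but not by edgeR. Adamts20 had too few reads for the test under PEG, and passed there without a filter on low counts, at -5.42 (edgeR adjusted p = 0.0110). Under PEG the log2 fold change was -13.13 ± 0.61 for Mmp10, -8.02 ± 0.94 for Mmp2, 3.04 ± 0.23 for Adamts9 and 6.19 ± 1.27 for Mmp15. Mmp10 was at -13.86 without HEV PEG 7, Mmp2 at -7.32 without HEV PEG 7 and -8.75 without HEV PEG 15, and Mmp15 at 7.33 without FRC PEG 2 and 7.06 without FRC PEG 10. Timp4 had 2864 reads in HEV PEG and 2 in FRC PEG libraries, a ratio of 2233 (95% counting interval 618 to 18447). Adamts14 passed at -4.86 ± 1.41 with the lowest and highest values without 1 library -5.89 (HEV PEG 23) and -4.27 (HEV PEG 15), and lost its call without HEV PEG 7, at -4.49 (adjusted p = 0.0543). Mmp27, with 885 reads in FRC PEG and 0 in HEV PEG libraries, fell under the filter on low counts and passed without any 1 of the 6 HEV PEG libraries.

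In PEG libraries the i5 index and the cell type cannot be told apart, since all 7 FRC PEG libraries carry 1 index and all 6 HEV PEG libraries another. Both indexes occur in both control groups. There a fit with the index as a further covariate called 5 members higher and 20 lower in HEVs. Timp3 lost its call in that fit, and the share of all genes called in it is not given here.

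**Figure D3:**
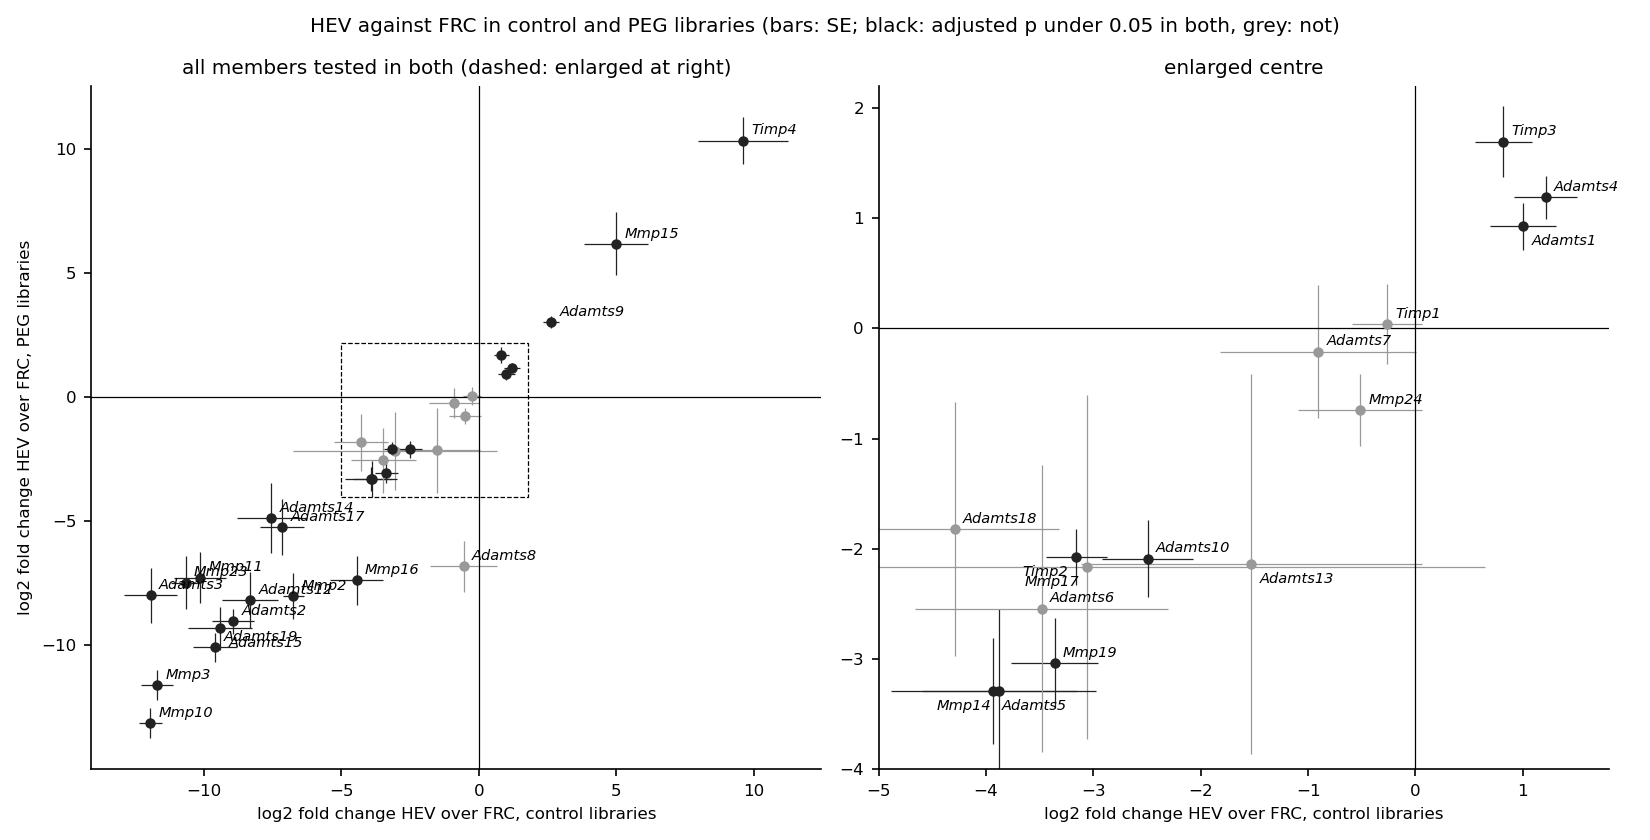
Log2 fold change of HEV over FRC in control libraries (x axis) and PEG libraries (y axis) for the 32 members tested in both, with SE bars; the right panel enlarges the middle of the left. Of these, 31 have the same sign in both comparisons, and Adamts8 stands away from the rest at -0.55 in controls and -6.82 under PEG.

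Parts of the series gave the same directions. In libraries 1 to 9 alone, 26 of 26 members called among controls kept their sign and 15 passed, and in libraries 10 to 24 alone 26 of 26 kept their sign and 21 passed. Under PEG 25 of 25 kept their sign in each part, with 12 and 24 passing. These parts share their libraries with the fits that made the calls, and the first holds only 2 HEV controls and 1 HEV PEG library. That first part was fitted without the block covariate. Members missing from HEVs entered through their FRC level, so the kept signs are a description. The share of all genes passing in each part is not given here.

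Other genes of the pathway were taken from lists of activators, regulators, relatives and substrates. Of 38 tested among controls, 22 were lower and 5 higher in HEVs, which is 71.1% beside 24.6% of all genes. Among substrates 7 of 8 were lower and 1 higher, with fibronectin (Fn1) at -9.82 and the collagen gene Col1a2 at -8.04 on the log2 scale. The substrates Col1a1, Col1a2 and Col3a1 are also in the fibroblast list used above, so their part of the count repeats that difference. Among pro-enzyme activators 3 of 6 were lower and 1 higher, with the proprotein convertase Pcsk6 at -9.32 and the urokinase receptor Plaur at 3.73. Other inhibitors and regulators had 6 of 9 lower and 2 higher, led by Lrp1, an endocytic receptor that clears proteases, at -7.30. ADAM proteases had 4 of 8 lower and 1 higher, with Adam19 at -9.40 and Adam15 at 2.84. Among ADAMTS-like proteins, which lack a protease domain, 2 of 7 were lower, Thsd4 at -4.27 and Adamtsl3 at -5.45. In PEG libraries 22 of 38 were lower and 6 higher in HEVs, beside 26.8% of all genes called, with 6 of 7 ADAMTS-like proteins lower and 2 ADAM proteases each way. After PEG 0 of 38 passed in FRCs and 0 of 30 in HEVs (edgeR), with an unadjusted p under 0.05 for 6 and 1 of them. Over all genes 0.0% passed in each cell type, and 6.78% and 6.19% had such a p.

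The second comparison asked what PEG changed within each cell type. PEG and the i5 index were not balanced. The index of all 7 FRC PEG libraries was carried by 3 of 7 FRC controls. That of all 6 HEV PEG libraries was carried by 2 of 4 HEV controls. The PEG fits given here and the interaction below hold no index term. In FRCs 0 of 33 tested members passed, as did 0.0% of 14595 genes (edgeR, adjusted p under 0.05). An unadjusted p under 0.05 was found for 4 members and 6.78% of all genes, and DESeq2 and limma-voom also called 0 members. The 4 were Adamts2, Adamts18, Adamts5 and Timp2. Adamts2 had 83.9, 139 and 198 CPM as lowest, median and highest in FRC PEG libraries against 137, 175 and 309.9 in controls, and the groups overlapped. Its log2 fold change was -0.54 ± 0.17 (edgeR adjusted p = 0.606). Adamts18 was at -1.40 ± 0.50 (edgeR adjusted p = 0.631), with 7 of 7 PEG libraries below the control median. Adamts5 was at 0.66 ± 0.29 (edgeR adjusted p = 0.698), or 0.36 without FRC PEG 1, and Timp2 at -0.30 ± 0.13 (edgeR adjusted p = 0.698).

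For 17 of the 33 members the 95% interval of the PEG effect in FRCs lay within a 2-fold change either way. Mmp10 was among them, at -0.44 to 0.31 on the log2 scale, as were Mmp2 at -0.43 to 0.11 and Mmp3 at -0.55 to 0.38. Low or uneven members had wide intervals, such as Mmp15 at -4.33 to 2.03 and Mmp17 at -2.40 to 2.97.

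In HEVs 0 of 20 tested members passed after PEG (edgeR), against 0.0% of 14308 genes. An unadjusted p under 0.05 was found for 1 member and 6.19% of all genes, and DESeq2 and limma-voom called 0. That member was Mmp2, with 0.254, 5.17, 27.7, 3.14, 1.67 and 5.00 CPM in HEV PEG 7, 14, 15, 16, 22 and 23 against 6.03 to 23.1 in controls. HEV PEG 15 exceeded every control, and the other 5 lay below the lowest. The log2 fold change was -2.45 ± 1.06 (edgeR adjusted p = 0.794). The next by p were Mmp16 at -4.24 ± 2.70, Timp2 at 0.63 ± 0.45 and Timp4 at -0.83 ± 0.63, with edgeR adjusted p of 0.832, 0.849 and 0.852.

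These 4 values moved with single HEV libraries. Mmp2 was at -1.80 without HEV PEG 7, -1.80 without HEV control 8 and -3.25 without HEV control 9. Mmp16 was at -2.73 without HEV PEG 7 and -2.81 without HEV control 8. Timp2 ranged from 0.18 without HEV control 9 to 0.95 without HEV PEG 22. Timp4 ranged from -1.42 without HEV PEG 23 to -0.43 without HEV PEG 22. The 95% interval of the PEG effect in HEVs lay within a 2-fold change for 5 of 20 members.

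**Figure D4:**
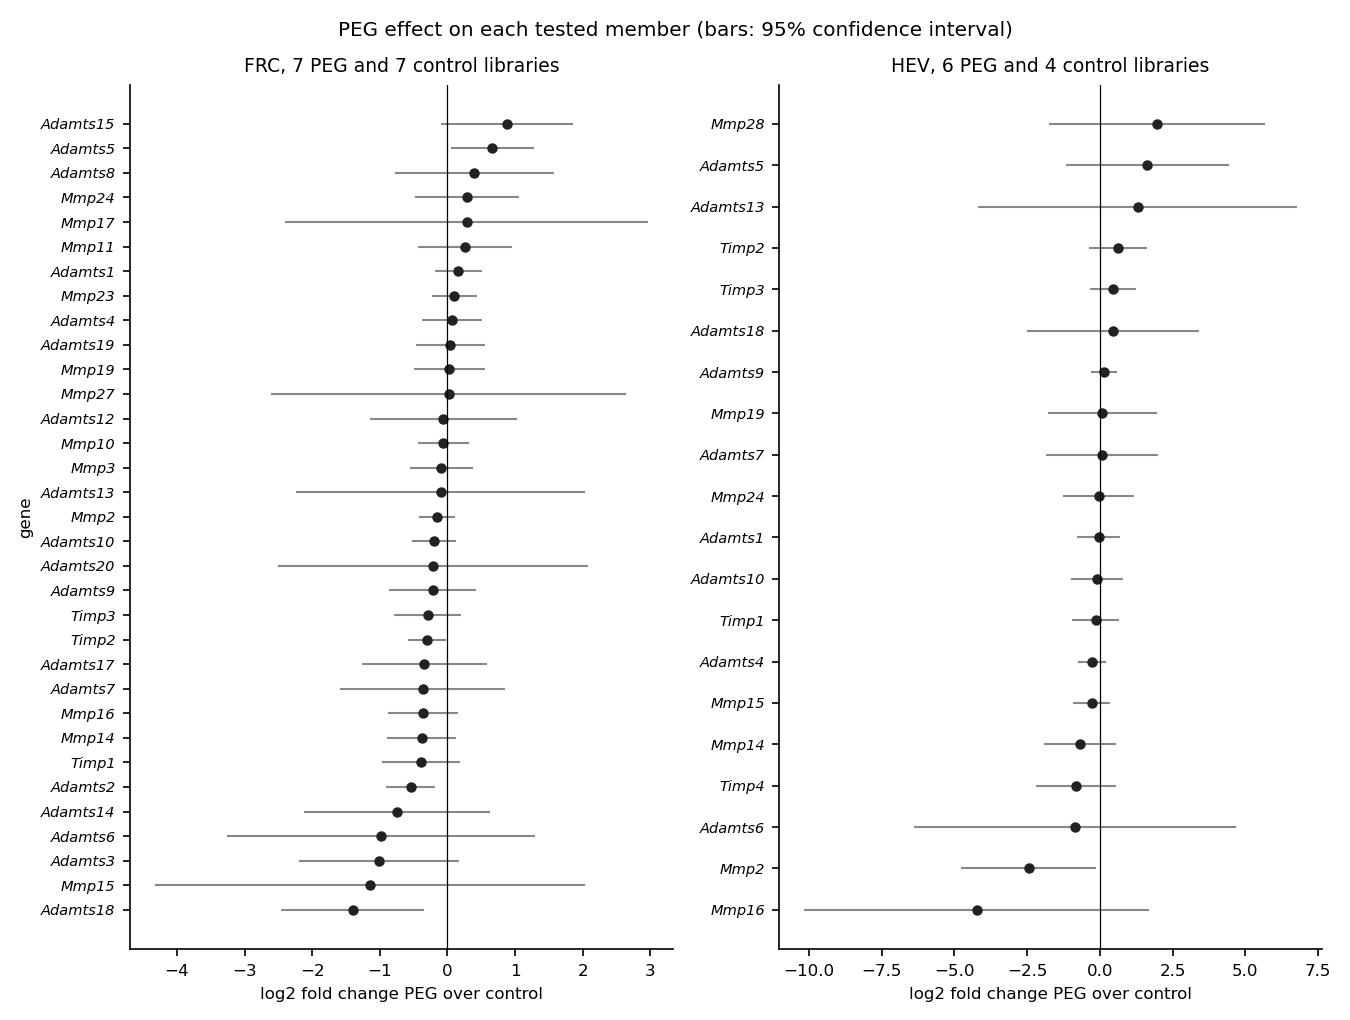
PEG effect as log2 fold change over control for each tested member, in FRCs (left, 33 members) and HEVs (right, 20 members), with points the estimate and bars the 95% confidence interval. The x axes differ in range; the bars cross 0 for 29 of 33 members in FRCs and 19 of 20 in HEVs.

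Timp3 was uneven within HEV PEG libraries. It stood at 571 and 529.9 CPM in numbers 16 and 22 and 222 to 244 CPM in the other 4, against 188 to 290.4 in HEV controls. HEV PEG 16 is the shallow library, and its summed epithelial markers were 2555 CPM. HEV PEG 22 had 1955 CPM of these markers, and HEV PEG 23, with 4204, had 244 CPM of Timp3. Their part in the Timp3 level was not tested. The HEV against FRC difference under PEG, 1.70 ± 0.32 on the log2 scale, was 1.49 without HEV PEG 16 and 1.44 without HEV PEG 22, and passed either way.

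Whether PEG acted differently in the cell types was tested as an interaction over all 24 libraries. It called 0 of 39 members (edgeR), with 0.011% of 18203 genes as background. An unadjusted p under 0.05 was found for 8 members and 10.1% of all genes. limma-voom called 0 and DESeq2 called 1, Adamts8, an enzyme known for an anti-angiogenic effect. Adamts8 had 21.8, 29.0, 0.442 and 0 CPM in HEV controls 8, 9, 17 and 24 and at most 0.627 CPM in the 6 HEV PEG libraries, while FRCs ranged from 2.69 to 17.5 CPM in controls and 2.14 to 38.7 under PEG. HEV control 8 and HEV PEG 7 (0.254 CPM) share the first block, and HEV control 9 shares the second with HEV PEG 14, 15 and 16, at 0.109, 0.0527 and 0.627 CPM.

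The interaction of Adamts8 was -6.52 ± 1.40 on the log2 scale (edgeR adjusted p = 0.126). The adjusted p was 1.11e-04 with DESeq2, 0.0129 without a filter on low counts and, over the fits without 1 library, 0.0293 without HEV control 24 to 0.234 without HEV control 9, where the value was -5.56. In libraries 1 to 9 and 10 to 24 alone it was 0.379 and 0.657, with values of -7.74 and -2.43. Within HEVs Adamts8 fell under the filter, and without it the PEG effect was -6.55 (edgeR adjusted p = 0.00371).

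The other members of smallest p were Adamts3 at 5.23 ± 1.62 (edgeR adjusted p = 0.269), Mmp23 at 3.34 ± 1.20 (0.345) and Mmp27 at -7.70 ± 2.86 (0.372). All 3 rest on few HEV reads, and the fitted values of Adamts3 and Mmp27 depend on the prior count. Adamts3 had 0 reads in HEV controls and 10 in HEV PEG libraries, and Mmp23 had 9 and 164. HEV PEG 14 and 23 had 4.95 and 4.86 CPM of Mmp23 and the other 4 HEV PEG libraries at most 0.314, and its value was 2.54 and 2.47 without either. Mmp27 had 108, all in HEV control 9, and 0, and without that library its value was 0.55.

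Within FRCs some members differed between libraries by number. The index pairs of the labels recur every 8 numbers, which gives 3 blocks, and each block holds as many FRC PEG as FRC control libraries. The first block holds 3 of each, the others 8 in all. A comparison of the first block with the others, with PEG as covariate, was added after the members' values by library had been seen. It called 6 of 33 members, or 18.2%, 4 higher and 2 lower, where 12.6% of all genes passed (6.94% higher, 5.64% lower), so the count itself is close to the background. What the blocks stand for is not given in the sources used here.

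For 3 ADAMTS genes, chosen by smallest p, the blocks did not overlap. Genes chosen in this way tend to lie apart, so the lack of overlap is a description. Of all genes 12.6% were called, which is another measure, and the share without overlap is not given here. Adamts1 had 346, 814, 717, 628, 627 and 506 CPM in FRC libraries 1 to 6 and 187 to 277 CPM in the other 8, with a log2 fold change of 1.36 ± 0.16 (SE; edgeR adjusted p = 4.61e-05). Adamts4 had 291, 194, 248, 193, 191 and 137 CPM against 57.6 to 130.2 (1.25 ± 0.20, edgeR adjusted p = 6.79e-04), and Adamts10 had 362, 466, 367, 308, 519 and 388 CPM against 132 to 242 (1.07 ± 0.15, edgeR adjusted p = 2.17e-04). Libraries 1 to 3 received PEG and 4 to 6 did not, and all 6 were above the rest.

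The other 3 calls were less stable. Adamts2 was higher in the first block (0.61 ± 0.17, edgeR adjusted p = 0.0224) and lost its call without FRC PEG 3 or FRC control 6, at 0.56 and 0.55. Mmp14 was lower (-0.99 ± 0.27, edgeR adjusted p = 0.0225), at 45.1 to 122 CPM against 100.1 to 326, and lost its call without FRC control 6 or FRC PEG 18, at -0.91 and -0.92. Mmp23 was lower too (-0.50 ± 0.16, edgeR adjusted p = 0.0435) and lost its call in 12 of 20 alternatives, among them each fit without FRC PEG 2, 3, 11 or 19 or any 1 of the 7 FRC controls (adjusted p = 0.0522 to 0.109). Mmp9 fell under the filter in this comparison, and without a filter on low counts it passed as higher in the first block, at 4.33 (edgeR adjusted p = 0.0255).

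**Figure D5:**
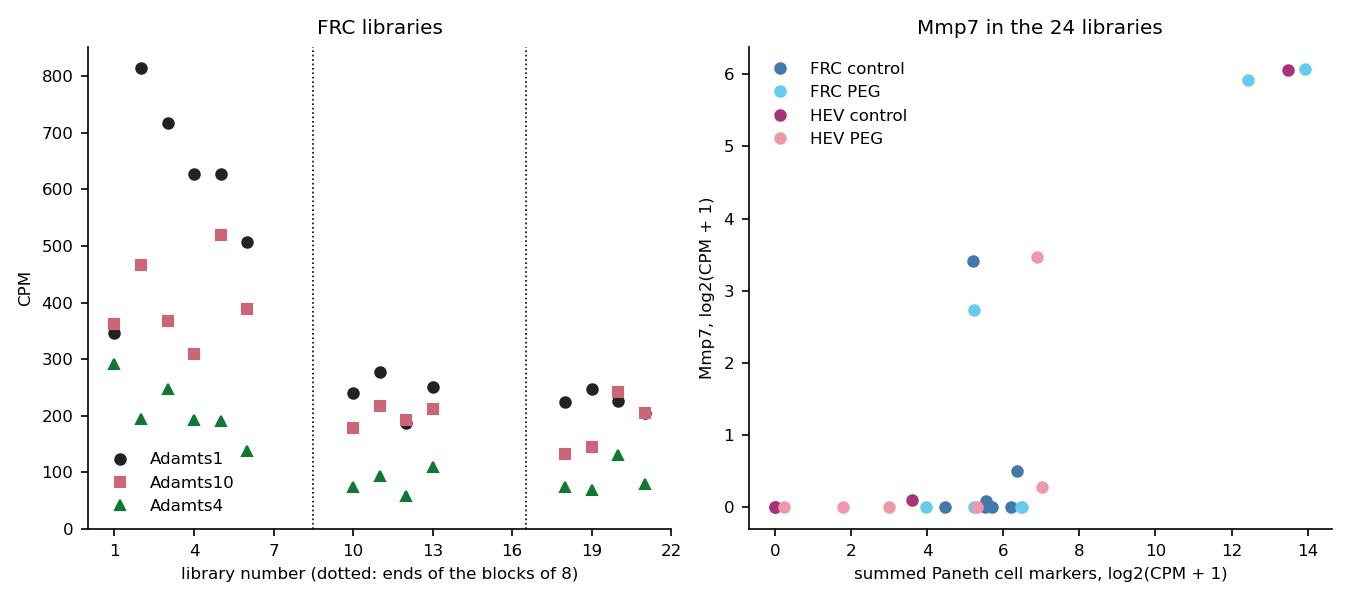
Left: CPM of Adamts1, Adamts10 and Adamts4 in the 14 FRC libraries by library number, with dotted lines at the ends of the blocks of 8. Right: Mmp7 against the summed Paneth cell markers, both as log2(CPM + 1), for the 24 libraries. At left the first 6 libraries lie above the other 8 for each gene, and at right the 3 libraries with the most Paneth cell RNA hold the most Mmp7.

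Other values moved with this block. Summed fibroblast markers were 29135 to 39043 CPM in FRC libraries 1 to 6 and 22386 to 26789.5 in the other 8. Macrophage markers summed to 158 to 259 CPM in FRC libraries 1 to 6, and to 294 in FRC PEG 18 and 29.1 to 139 in the remaining 7. Sums of 14 epithelial genes were 49.9 to 845 against 54.9 to 5580.3 CPM, and of 6 lymphocyte genes 0.0615 to 3.59 against 0.472 to 11.7. The part of these in the difference was not tested. HEV PEG 7 and HEV control 8 of the same block had 1084 and 705 CPM of Adamts1, where the other 8 HEV libraries spanned 231 to 1035. For Adamts4 they had 352 and 231 CPM, within the span of 174 to 361 of the others, and for Adamts10 24.4 and 40.8, within 18.3 to 106. With no block term, the HEV against FRC differences of Adamts1 and Adamts4 under PEG did not pass, at 0.52 and 0.67 on the log2 scale (adjusted p = 0.323 and 0.198).

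Mmp7, matrilysin, is the member best known from the gut, where Paneth cells use it to activate their antimicrobial defensins. It exceeded 5 CPM in 6 libraries of all 4 groups. FRC PEG 1, 18 and 19 had 5.64, 66.4 and 59.4 CPM, FRC control 5 had 9.68, HEV control 24 had 65.5 and HEV PEG 16 had 10.0. The other 18 libraries had at most 0.413 CPM. FRC PEG 18 and 19 and HEV control 24 were also the 3 with the most Paneth cell RNA. Summed over 6 Paneth cell genes they held 15755, 5533 and 11353 CPM, and the next highest library, HEV PEG 23, held 127. HEV PEG 16 had 118 CPM of them, and FRC control 5 and FRC PEG 1 had 35.9 and 36.8, within the range of FRC libraries with no Mmp7 reads. The part of Paneth cell RNA in the Mmp7 level was not tested. Mmp7 had enough reads for the interaction test alone, and did not pass.

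Of the 46 members, 39 had enough reads for at least 1 comparison. The 7 in no test were Mmp1a, Mmp1b, Mmp8, Mmp12, Mmp20, Mmp25 and Adamts16, with 2 to 73 reads over all 24 libraries. Adamts16 had 62 of its 73 reads in HEV control 17. Mmp21 and Mmp28 were low, with 173 and 443 reads and at most 2.69 and 7.45 CPM in any library. Mmp28, epilysin, is known from epithelia.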

How the data were processed

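RNA of sorted FRCs and HEV endothelial cells was sequenced in 24 libraries. The labels' protocols describe template-switching cDNA, removal of low-quality, rRNA and adapter sequences, and use of unique alignments only. Alignment used GSNAP and mm9 per the submitters' processing notes, whereas the protocol text names a human build. Versions and the annotation are not given in the sources used here. The read counts per gene model are deposited as such, per the file headers, and served for all tests and for CPM. The accompanying RPKM, which the authors adjusted by a size factor, served only to set genes side by side. For 19003 of 19003 genes checked, the size-factor-adjusted count divided by this RPKM gave 1 constant per gene, within 1e-06. This implied length tracked GENCODE exon length (Spearman 0.801 across 16078 genes), within 25% of the median ratio for 60.1% of them.

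Symbols came from RefSeq annotation of GRCm38.p6, which named 85.0% of identifiers, with 97.3% of the reads. Genes with low counts were dropped by filterByExpr (minimum 10), and libraries were normalised with TMM. edgeR 4.0.16 with limma 3.58.1 in R 4.3.3 gave two-sided quasi-likelihood tests with robust dispersions, and the block of library numbers (1 to 8, 9 to 16, 17 to 24) was a covariate. Blocks were inferred from recurring index pairs. P-values were adjusted by Benjamini-Hochberg over all genes tested, at 0.05. Each SE was derived from the fold change and its F statistic. CPM uses TMM-scaled totals of all 24 libraries. The fits were tested on simulated counts, where most 2-fold changes were missed in every comparison. Most 4-fold changes were missed too, other than in the comparisons within FRCs. A member that did not pass may therefore still differ. Reads carry no molecular identifiers, so counting error is all that the intervals on read counts and the 3-count floor include. P-values measure the spread between libraries, and FRC and HEV libraries may in part share a mouse.

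The members, lists and comparisons were chosen with earlier results of these data known. Named with values were members at a mean of at least 5 CPM in some group (35 of 46), members that passed a test, and the 4 members of smallest p in each comparison with PEG; low members named beyond these were chosen after their values were seen. Alternatives were other size factors, DESeq2 1.42.0, limma-voom with quality weights, other filters on low counts, other covariates, parts of the series and the omission of single libraries.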

Additional observations from a re-analysis of the deposited data

Results flagged for a closer look

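In each group the highest and the lowest library of every member at a mean of at least 5 CPM in that group were compared with their nearest neighbour on the log2(CPM + 1) scale, by Dixon's criterion at 95%. Of 96 such sets of libraries, 8 held a library that stands apart; chance gives about 1 in 20.

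FRC control 21 was the lowest of its group for both Mmp2, at 1158 CPM with the next at 1409, and Mmp16, at 20.5 CPM with the next at 44.0. FRC control 6 had 0.975 CPM of Adamts14, with the next at 16.1, and FRC control 5 had 0.569 CPM of Adamts6, with the next at 7.49. FRC PEG 1 had the highest Adamts5 of its group, 173 CPM with the next at 78.8. HEV PEG 7 was lowest for Mmp14, at 0.0846 CPM with the next at 12.1, and highest for Adamts9, at 218 CPM with the next at 152. HEV control 24 had 65.5 CPM of Mmp7, with the next at 0.0737.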

How the results depend on the processing

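No alternative turned the direction of any of the 26 members called between HEVs and FRCs among controls or of the 25 called under PEG. Among controls 559 of 597 values under an alternative kept the call and 38 lost it, and under PEG 581 of 598 kept it and 17 lost it. Members higher in HEVs among controls numbered 1 in libraries 1 to 9 and 2 in libraries 10 to 24, and under PEG 1 in libraries 1 to 9, where 11 were lower; these parts hold fewer samples. Leaving out 1 library gave 3 to 6 higher (3 without HEV control 9) and 19 to 21 lower among controls, and 6 higher and 19 to 20 lower under PEG. For PEG in HEVs 1 member, Adamts8, passed with no filter on low counts and with all 24 libraries in 1 model, and leaving out a library gave 0, as it did in FRCs. For the interaction 1 member passed with no filter and with DESeq2 (Adamts8), and 1 in libraries 1 to 9 (Mmp2), and leaving out a library gave 0 to 1 (1 without HEV control 24). The first FRC block against the others gave 3 to 7 calls when a library was left out (3 without FRC control 6). Signs turned for Timp2 under PEG in HEVs in libraries 10 to 24, at -0.41, for Mmp23 in the interaction in libraries 1 to 9, at -4.10, and for Mmp27 in the interaction with limma-voom, at 0.12, and without HEV control 9, at 0.55 (-8.43 to 0.55 over the fits without 1 library). None of these 3 had passed, and the cause was not tested. In each comparison with PEG only the 4 members of smallest p were followed in this way, so other members may have turned too. CPM on raw totals moved no group mean by more than 1 SD. The fit with the i5 index under PEG could not be made, as index and cell type coincide there. No paired analysis was possible because the labels give each library its own number. The 4 HEV controls, and the 3115003 reads of HEV PEG 16, limit the precision of HEV values.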
